A study of Mus musculus with 9 samples.

Results

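Metallothioneins and zinc transporters were followed through 6 genes of the mouse, Mt1, Mt2, Mtf1, Slc30a1, Slc39a1 and Slc39a14. They were chosen by name, for their place in zinc handling, but with earlier results of these data known. They make up 6 of the 22001 gene identifiers in the count table. RNA sequencing had been done on bone marrow-derived macrophages of C57BL6 mice, phagocytes grown in culture from marrow precursors. There were 3 libraries in each of 3 groups, all taken after 6 h: untreated cells given PBS (libraries A2, B2 and C2), cells given Pam3CSK4 at 100 µg/ml (D1, D2 and D3), and cells given Pam3CSK4 at 100 µg/ml together with 3SL at 100 µl/ml (A2plus, B2plus and C2plus). Pam3CSK4 is a lipopeptide made to mimic bacterial lipoproteins and is a ligand of Toll-like receptors. 3SL is read from the series title as 3'-sialyllactose, a milk sugar, and is stated as a volume only. The labels conflict on the ligand: the descriptions name Pam3CSK4 for both treated groups, while titles and treatment tags write Pamc3 for the D libraries and Pamc4 for the 3SL-labelled ones, with CSL in place of 3SL in the tag. The descriptions were followed, and whether both groups had the same ligand is not settled, which bears on every comparison with the 3SL-labelled libraries. No label says that the libraries of a group were separate cultures or animals, so the p-values cover no more than the scatter among these 9 samples, which may be technical.

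Metallothioneins are small proteins rich in cysteine that bind zinc and copper and so buffer the free metal in the cytosol. MTF1 is a zinc-finger transcription factor that binds zinc, moves to the nucleus and acts through short metal response elements in the promoters of Mt1, Mt2 and Slc30a1. Transporters of the ZnT family (Slc30 genes) carry zinc out of the cytosol, across the plasma membrane or into organelles, and those of the ZIP family (Slc39 genes) carry it in. Macrophages are known to move zinc between these pools when they meet microbes.

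Total counts per library ran from 7472482 to 43980309, and levels below are CPM, counts per 1000000 counts of a TMM-scaled library size. Within a group, counts of library pairs scattered beyond sampling noise (chi-square of 1.85 to 3.01 for each degree of freedom), and each library was counted once. Il6, which encodes the cytokine interleukin-6 and rises when Toll-like receptors are engaged, went against the labels. It had 3099 to 15068 counts in the untreated-labelled libraries, 0 to 2 in the Pam3CSK4-labelled and 1192 to 2126 in the 3SL-labelled libraries. The groups are therefore named by their labels throughout, and every direction below is a direction between labels. All 10 macrophage markers had counts in all 9 libraries, with a summed level of 19022 to 19411 CPM in the Pam3CSK4-labelled libraries and 23295 to 24538 CPM in the other libraries. Lyz2 and Adgre1 carry most of that sum, and the markers went both ways from the untreated-labelled to the Pam3CSK4-labelled libraries, with 3 higher (Mrc1 2.41-fold, Mertk 1.99-fold and Cd68 1.38-fold), 5 lower (Adgre1 3.32-fold at most) and 2 not called. Without TMM scaling Csf1r, Lyz2 and Fcgr1 were no longer lower, and C1qa and C1qb were higher. The 7 neutrophil and progenitor markers summed to 569 to 599 CPM in the untreated-labelled, 338 to 443 CPM in the Pam3CSK4-labelled and 462 to 513 CPM in the 3SL-labelled libraries. This sum is mostly S100a8, S100a9 and Ngp, and of the 6 markers tested 4 were lower under the Pam3CSK4 label while Elane (2.19-fold) and Mpo (2.12-fold) were higher; Ngp was not called without TMM scaling. The 4 dendritic cell markers stood at 5.30 to 7.0, 0.560 to 2.18 and 4.67 to 4.92 CPM in the same order, and the 3 stromal markers at 10.9 to 12.2, 1.32 to 2.32 and 6.60 to 9.0 CPM. The stromal change is that of Pdgfrb, with group means of 10.3, 1.12 and 6.90 CPM, since Col1a1 and Col1a2 had group means of at most 0.658 CPM. The dendritic change is mostly that of Ccr7, with group means of 3.98, 0.159 and 3.15 CPM. The 3 lymphocyte markers and the 3 erythroid and mast cell markers summed to at most 1.37 CPM in any library, and Cd3e was at 0 in all Pam3CSK4-labelled libraries. Summed levels of these lists moved with the groups, and their part in the results below was not tested. The Pam3CSK4-labelled libraries also carry another letter code than the rest, and what the letter stands for cannot be told apart from the group.

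Of the 6 genes, Mt1, Mt2 and Slc30a1 are the known MTF1 targets, and their promoters are shown for the metal response elements they hold. RefSeq windows on GRCm38.p6, from 250 bases before to 50 bases after the annotated start, were matched for 5 of the 6 genes, without Slc39a14. The window of Mt1 is chr8:94178839-94179138 on the plus strand, that of Mt2 is chr8:94172368-94172667 on the plus strand and that of Slc30a1 is chr1:191906531-191906830 on the plus strand. Each is written 5′ to 3′, with capitals for the metal response element core, TGCACNC or TGCGCNC, on either strand.
Mt1: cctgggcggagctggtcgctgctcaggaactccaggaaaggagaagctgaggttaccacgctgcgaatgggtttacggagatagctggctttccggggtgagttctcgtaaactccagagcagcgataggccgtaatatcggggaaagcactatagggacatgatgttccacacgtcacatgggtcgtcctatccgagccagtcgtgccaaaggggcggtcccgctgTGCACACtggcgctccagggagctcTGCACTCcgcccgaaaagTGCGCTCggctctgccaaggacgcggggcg
Mt2: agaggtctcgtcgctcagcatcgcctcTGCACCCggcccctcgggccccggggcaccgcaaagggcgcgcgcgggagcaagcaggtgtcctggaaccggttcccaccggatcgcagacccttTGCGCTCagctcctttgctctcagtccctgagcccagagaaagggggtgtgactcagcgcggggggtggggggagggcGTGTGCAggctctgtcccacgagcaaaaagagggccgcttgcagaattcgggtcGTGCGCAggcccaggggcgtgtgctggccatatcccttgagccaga
Slc30a1: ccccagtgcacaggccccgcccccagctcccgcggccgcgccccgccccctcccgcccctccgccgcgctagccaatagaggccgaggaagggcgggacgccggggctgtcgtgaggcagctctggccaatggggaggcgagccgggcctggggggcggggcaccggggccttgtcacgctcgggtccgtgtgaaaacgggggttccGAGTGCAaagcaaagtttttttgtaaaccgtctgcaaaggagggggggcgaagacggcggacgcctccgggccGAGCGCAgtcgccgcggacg
The Mt1 window held 3 cores, the Mt2 window 4 and the Slc30a1 window 2, while those of Mtf1 and Slc39a1 held 0. Of all 32851 promoter windows of the same length, 25.7% held at least 1 core, 7.11% at least 2, 1.97% at least 3 and 0.517% at least 4. In Mt1 the cores lay downstream in the window, from position -23 to position 27 relative to the RefSeq start. In Mt2 they were spread from position -223 to position 11 relative to the RefSeq start, with 2 on each strand. GENCODE places the Mt2 start further downstream, at 94172664, and by that start all 4 cores lie upstream of the gene. The core of the antioxidant response element, TGACNNNGC on either strand, was found 1 time each in the windows of Mt2, Slc30a1 and Slc39a1. It was found in 12.4% of all windows. In Mt2 it lay from position -79 to position -71. A match is a run of letters and not a measured binding site. Bases outside the windows were not searched, so elements that lie beyond a window, on either side, would be missed.

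Compared with untreated-labelled libraries, those labelled Pam3CSK4 had less RNA of 5 of the 6 genes and more of Slc30a1. The falls were 7.95-fold for Mt2, 6.52-fold for Slc39a14, 2.39-fold for Slc39a1, 1.45-fold for Mt1 and 1.37-fold for Mtf1, and Slc30a1 rose 1.87-fold. All 6 passed edgeR's quasi-likelihood test at an adjusted p of 0.05, as did 75% of the 11469 genes tested, 39% being higher and 35.9% lower. The count of calls is thus near that of the whole table, and the sizes separate the genes further. Without TMM scaling 6882 of all genes were higher and 2380 lower, against 4474 and 4123 with it, and the median gene moved from 0.03 to 0.34 on the log2 scale. Mt2, Slc39a14 and Slc39a1 fell by at least 2-fold, as did 10.8% of all genes. In each of the 6 genes the 2 groups did not overlap, as was so for 76% of all genes. The median log2 change was -0.90 over the 6 genes and 0.03 over all genes tested. As the 6 genes were chosen with earlier results of these data known, this contrast is a description only. In bulk RNA, fewer cells of a type and less RNA per cell cannot be told apart.

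The 3SL-labelled libraries differed from the Pam3CSK4-labelled ones in the opposite directions, with 5 genes higher and Slc30a1 lower. Mt2 was 9.65-fold higher, Slc39a14 7.13-fold, Slc39a1 2.33-fold, Mt1 1.61-fold and Mtf1 1.42-fold, and Slc30a1 was 1.36-fold lower. All 6 passed the test, where 71.5% of all genes did, 34.7% higher and 36.8% lower. Without TMM scaling 2434 of all genes were higher and 6393 lower, against 3978 and 4226 with it. The 3 rises of at least 2-fold stand beside 10.5% of all genes, and the groups did not overlap for any of the 6, as for 73.1% of all genes. This comparison shares the Pam3CSK4-labelled libraries with the first, so a gene that is low in them moves in opposite directions in the 2 comparisons by construction.

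**Figure D1:**
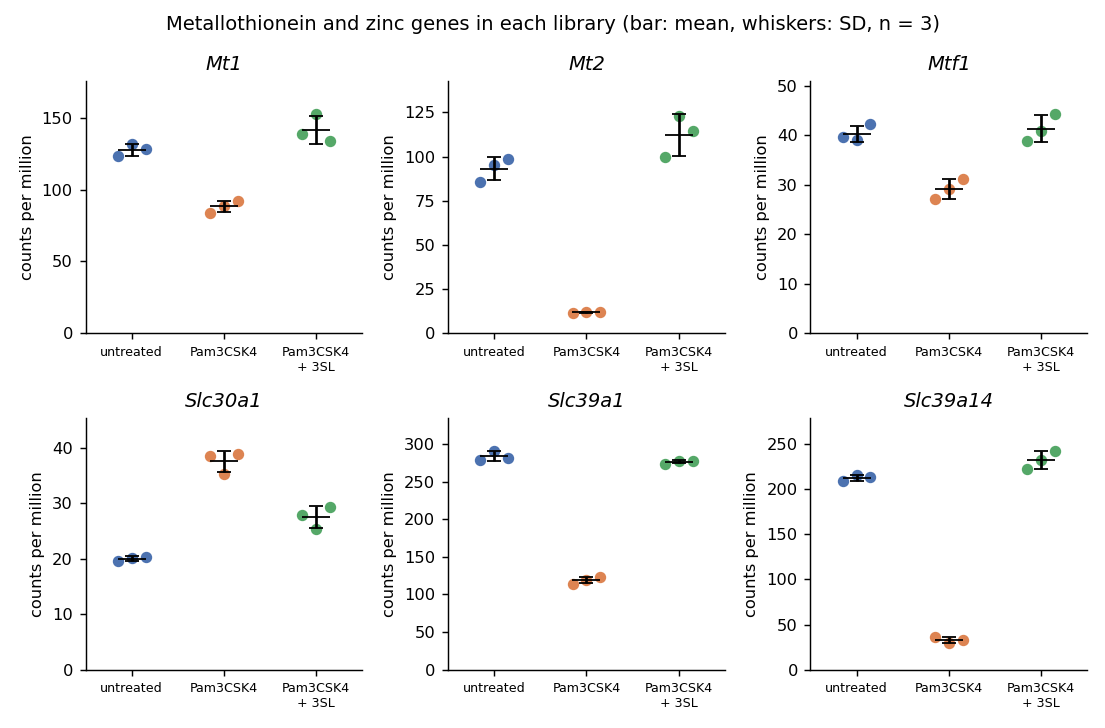
Level of each of the 6 genes in every library (vertical axis, CPM, from 0), by labelled group (horizontal axis); points are libraries, the bar is the mean and the whiskers the SD of 3 libraries. In the Pam3CSK4-labelled group 5 genes lie below all other libraries and Slc30a1 lies above them.

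**Figure D2:**
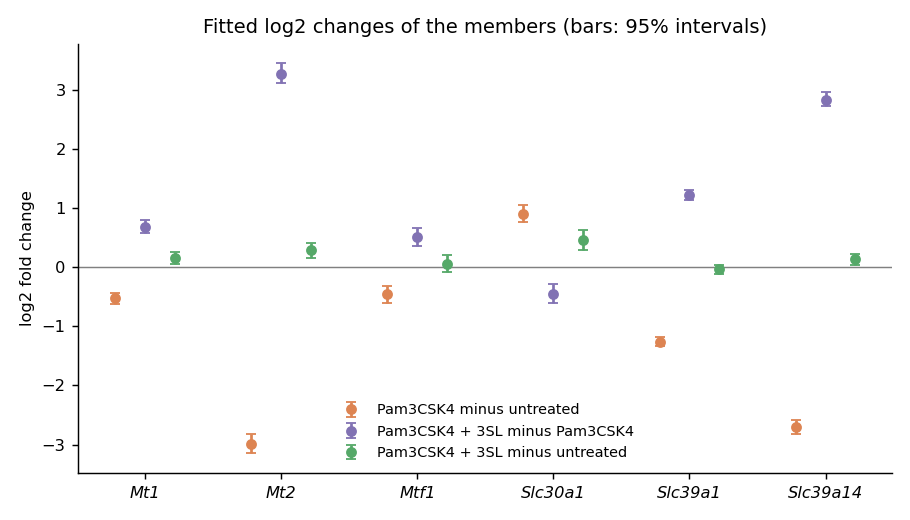
Log2 fold change of each gene (horizontal axis) in the 3 comparisons of labelled groups, with 95% intervals from edgeR's quasi-likelihood fit. Mt2 and Slc39a14 lie farthest from 0 in the comparisons that hold the Pam3CSK4-labelled libraries, and between the 3SL-labelled and untreated-labelled libraries the 6 genes run from -0.04 to 0.45.

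Mtf1, the zinc sensor (ENSMUSG00000028890, chr4:124802104-124849800 on the plus strand of GRCm38), stood at 39.6, 39.0 and 42.2 CPM in A2, B2 and C2. It stood at 27, 29.1 and 31.2 CPM in D1, D2 and D3, and at 38.8, 40.9 and 44.3 CPM in A2plus, B2plus and C2plus. The D libraries lay below all 6 others, and the other groups overlapped. The log2 change from untreated-labelled to Pam3CSK4-labelled was -0.46 ± 0.0681 (SE, edgeR adjusted p = 9.66e-07), and from Pam3CSK4-labelled to 3SL-labelled it was 0.51 ± 0.0738 (adjusted p = 6.84e-07). With library sizes taken without TMM scaling the first change was -0.14 and no longer passed (adjusted p = 0.0570). The gene 1110065P20Rik on the opposite strand overlaps 8.09% of the Mtf1 exons and had 23 to 158 counts per library, against 276 to 1571 for Mtf1. As the strand setting of the counting was not given in the sources used here, reads in that stretch cannot be assigned to either gene.

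Mt1 and Mt2, the metallothioneins found in most tissues, lie next to each other on chromosome 8 in the same orientation, 5513 bases apart. Mt1 (ENSMUSG00000031765, chr8:94179082-94180327) stood at 124, 132 and 128 CPM in the untreated-labelled libraries A2, B2 and C2. It stood at 84.1, 88.8 and 92.1 CPM in D1, D2 and D3, and at 139, 153 and 134 CPM in A2plus, B2plus and C2plus. The D libraries were the lowest and the 3SL-labelled libraries the highest, with no overlap between any pair of groups. The log2 change of Mt1 was -0.53 ± 0.0481 from untreated-labelled to Pam3CSK4-labelled (SE, edgeR adjusted p = 9.16e-11) and 0.68 ± 0.0505 from Pam3CSK4-labelled to 3SL-labelled (adjusted p = 1.72e-12). Without TMM scaling these changes were -0.22 and 0.41, both still past the threshold, beside median genes at 0.34 and -0.29.

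Mt2 (ENSMUSG00000031762, chr8:94172664-94173568) stood at 85.8, 95.2 and 98.6 CPM in A2, B2 and C2. It fell to 11.3, 12 and 11.7 CPM in D1, D2 and D3, from 141 to 210 counts per library. In A2plus, B2plus and C2plus it stood at 99.7, 123 and 114 CPM. The 3 D libraries were alike and far below the rest, and the 3SL-labelled libraries lay just above the untreated-labelled ones. The log2 change was -2.99 ± 0.0782 from untreated-labelled to Pam3CSK4-labelled (SE, edgeR adjusted p = 6.75e-23), which put Mt2 at percentile 2.87 of all tested genes, and 3.27 ± 0.0804 from Pam3CSK4-labelled to 3SL-labelled (adjusted p = 2.02e-23). An antisense gene, Gm45774, covers 73.5% of the Mt2 exons in the annotation. It has no entry in the count table, so reads from it could not be told apart from those of Mt2.

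The neighbouring pair thus changed by unequal amounts, which the ratio of their counts within a library shows free of any scaling. There were 1.44, 1.38 and 1.30 Mt1 counts per Mt2 count in A2, B2 and C2. There were 7.46, 7.38 and 7.88 in D1, D2 and D3, and 1.39, 1.24 and 1.17 in A2plus, B2plus and C2plus. The ratio was several-fold higher in every D library than in any other, and the remaining groups overlapped. It was 5.51-fold higher in the Pam3CSK4-labelled than in the untreated-labelled libraries and 5.98-fold lower in the 3SL-labelled libraries than in those labelled Pam3CSK4, each with p = 0.1 in a two-sided exact permutation test, the smallest p that 3 against 3 libraries allow. Between the 3SL-labelled and untreated-labelled libraries the exact permutation test gave p = 0.3 for a 1.09-fold difference. The longest run of bases common to the main transcripts of Mt1 and Mt2 was 20, and they shared no stretch of 50 bases. Of the 50-base stretches of Mt2 transcripts, however, 45.8% recur in the antisense gene Gm45774. Reads from Gm45774 could have been counted as Mt2 in this ratio. The ratio measures unequal change and does not show that either gene held still.

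**Figure D3:**
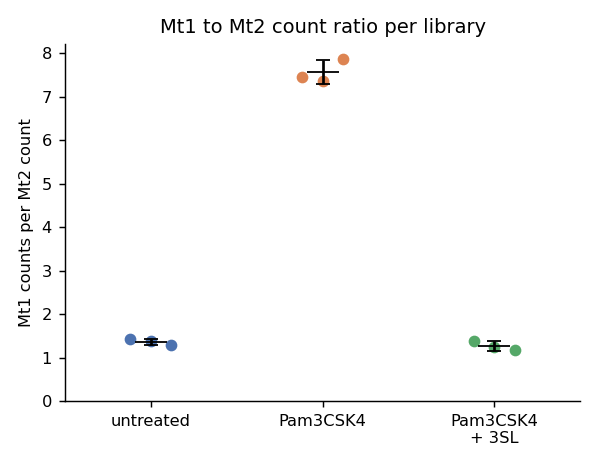
Mt1 counts per Mt2 count (vertical axis, a ratio, from 0) in each library, by labelled group; points are libraries, the bar is the mean and the whiskers the SD of 3 libraries. The Pam3CSK4-labelled libraries lie between 7.38 and 7.88 and all others between 1.17 and 1.44.

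The third metallothionein tested, Mt3, best known from brain, stood at 1.21 ± 0.337, 1.19 ± 0.444 and 1.46 ± 0.324 CPM (SD, n = 3) in the untreated-, Pam3CSK4- and 3SL-labelled libraries, which overlapped. Mt4, a metallothionein of stratified epithelia, had 0 counts in all 9 libraries, which allows up to 0.0745 CPM in the deepest and 0.421 CPM in the shallowest library, counting error only. Of the 4 metallothioneins listed, the RNA in these cells was thus that of Mt1 and Mt2 for the most part.

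Slc30a1 encodes ZnT1, the zinc exporter of the plasma membrane (ENSMUSG00000037434, chr1:191906767-191913247 on the plus strand). It stood at 19.6, 20.2 and 20.3 CPM in A2, B2 and C2, at 38.5, 35.3 and 38.8 CPM in D1, D2 and D3, and at 27.8, 25.3 and 29.3 CPM in A2plus, B2plus and C2plus. The 3 groups did not overlap, and the 3SL-labelled libraries lay between the others. The log2 change was 0.90 ± 0.0700 from untreated-labelled to Pam3CSK4-labelled (SE, edgeR adjusted p = 4.09e-12), at percentile 84.7 of all tested genes. It was -0.45 ± 0.0750 from Pam3CSK4-labelled to 3SL-labelled (adjusted p = 6.41e-06), and -0.72 without TMM scaling. Its promoter holds metal response element cores as those of Mt1 and Mt2 do. Its level was highest in the D libraries, where both metallothioneins were lowest. Whether the cores bear on these levels was not tested. An antisense gene, 1700034H15Rik, overlaps 8.92% of its exons and has no entry in the count table.

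Slc39a1 encodes ZIP1, a zinc importer of wide expression (ENSMUSG00000052310, chr3:90248172-90253612 on the plus strand). It stood at 279, 291 and 281 CPM in A2, B2 and C2, at 114, 119 and 123 CPM in D1, D2 and D3, and at 274, 277 and 277 CPM in A2plus, B2plus and C2plus. The D libraries were well below the rest, and the other groups were close to each other without overlap. The log2 change was -1.26 ± 0.0373 from untreated-labelled to Pam3CSK4-labelled (SE, edgeR adjusted p = 1.30e-21) and 1.22 ± 0.0385 from Pam3CSK4-labelled to 3SL-labelled (adjusted p = 7.10e-21). Of the 50-base stretches of its transcripts, 21.8% recur in the pseudogene Slc39a1-ps, not used here, so part of its reads could have been shared or dropped in counting.

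Slc39a14 encodes ZIP14, which carries zinc and also manganese and iron not bound to transferrin, and is known to rise in liver during inflammation (ENSMUSG00000022094, chr14:70303469-70351425 on the minus strand). It stood at 209, 216 and 213 CPM in A2, B2 and C2. It stood at 36.6, 29.4 and 32.8 CPM in D1, D2 and D3, and at 223, 233 and 243 CPM in A2plus, B2plus and C2plus. The D libraries were again far below the rest, and the 3SL-labelled libraries all lay above the untreated-labelled ones. The log2 change was -2.70 ± 0.0547 from untreated-labelled to Pam3CSK4-labelled (SE, edgeR adjusted p = 1.70e-25), at percentile 3.45 of all tested genes, and 2.83 ± 0.0561 from Pam3CSK4-labelled to 3SL-labelled (adjusted p = 1.21e-25).

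Levels of different genes were compared only per length, as CPM per kilobase of the main transcript. In the untreated-labelled libraries the order was Mt1 at 233 ± 7.37, Mt2 at 182 ± 13.0, Slc39a1 at 120 ± 2.77, Slc39a14 at 43.2 ± 0.681, Mtf1 at 5.27 ± 0.221 and Slc30a1 at 3.82 ± 0.0794 (SD, n = 3 each). Neighbours in this order differed by more than their spread. In the Pam3CSK4-labelled libraries Mt1 was still first at 161 ± 7.31 CPM per kilobase, followed by Slc39a1 at 50.2 ± 1.73 and Mt2 at 22.8 ± 0.755. Slc30a1 at 7.16 ± 0.368 and Slc39a14 at 6.68 ± 0.737 did not differ beyond their spread, and Mtf1 was last at 3.81 ± 0.271 CPM per kilobase. In the 3SL-labelled libraries Mt1 at 258 ± 18.2 and Mt2 at 220 ± 23.1 CPM per kilobase led again, apart by less than the sum of their SDs. Slc39a1 at 117 ± 0.861 and Slc39a14 at 47.2 ± 2.05 CPM per kilobase followed, and Mtf1 at 5.41 ± 0.365 did not differ from Slc30a1 at 5.24 ± 0.377 beyond the spread. The order depended on the length used, at the top and at the bottom. With all annotated exons of a gene joined, Mt1 in the untreated-labelled libraries stood at 103 CPM per kilobase, below Mt2 at 159 and Slc39a1 at 120. In the Pam3CSK4-labelled libraries Slc39a14 then stood at 3.12 CPM per kilobase, below Slc30a1 at 7.16 and beside Mtf1 at 3.27.

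Between the 3SL-labelled and the untreated-labelled libraries the differences were small, and 2 of the 6 genes passed the test. Slc30a1 was 1.37-fold and Mt2 1.22-fold higher in the 3SL-labelled libraries, in a comparison where 8.94% of all genes passed, 3.83% higher and 5.11% lower. These shares rest on 439 higher and 586 lower genes, which became 270 and 356 without B2, the deepest library, and 306 and 378 without A2plus. The log2 difference was 0.45 ± 0.0789 for Slc30a1 (SE, edgeR adjusted p = 2.30e-04), at percentile 96.3 of all tested genes, and 0.28 ± 0.0588 for Mt2 (adjusted p = 0.00188), at percentile 92.4. Both passed under all 16 alternatives tried, Mt2 with adjusted p up to 0.0431 and Slc30a1 up to 0.00367. Mt1 differed by 0.15 (95% interval 0.05 to 0.25) and did not pass (adjusted p = 0.0522). It passed in 6 of its 16 alternatives, where its adjusted p ran from 0.0106 to 0.326, and without C2plus it was 0.0140. Slc39a14 differed by 0.13 (95% interval 0.04 to 0.22, adjusted p = 0.0734) and likewise passed in 6 of 16, with adjusted p from 0.0138 to 0.275, below the threshold without D1 or without D2. The calls for Mt1 and Slc39a14 thus depend on the setting. Mtf1 differed by 0.05 (95% interval -0.09 to 0.20, adjusted p = 0.721) and Slc39a1 by -0.04 (95% interval -0.11 to 0.03, adjusted p = 0.570). These intervals bound the differences and do not show that the levels were equal. In this comparison 5 of the 6 genes had groups that did not overlap, as had 24% of all genes tested.

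The other zinc genes, which are transporter genes and the metallothioneins Mt3 and Mt4, gave a mixed picture between the untreated-labelled and Pam3CSK4-labelled libraries. Of the 23 further zinc genes listed, 16 were tested, and 6 were higher, 7 lower and 3 not called, beside 39% higher and 35.9% lower in the whole table. Their median log2 change was -0.13. With Slc39a1 and Slc39a14, the ZIP family had 5 genes higher and 5 lower among 12 tested. With Slc30a1, the ZnT family had 2 higher and 4 lower among 6 tested. Without TMM scaling, Slc39a3 (0.47) and Slc39a9 (0.26) were also higher, against 0.15 and -0.05 with it.

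Among the importers, Slc39a4, whose product ZIP4 takes up dietary zinc in the gut, fell 10.7-fold. It stood at 8.73, 7.85 and 6.25 CPM in A2, B2 and C2, at 0.879, 0.459 and 0.916 CPM in D1, D2 and D3 and at 11.7, 10.2 and 8.33 CPM in A2plus, B2plus and C2plus. This is a low gene, and the D libraries lay below all others. Slc39a13, for ZIP13 of intracellular vesicles, fell 2.95-fold from 69.4 ± 1.59 to 23.5 ± 0.353 CPM, and Slc39a7, for ZIP7, which releases zinc from the endoplasmic reticulum, fell 1.54-fold from 181 ± 1.35 to 117 ± 5.54 CPM (SD, n = 3 each). The opposite was seen for Slc39a8, whose product ZIP8 carries zinc and manganese across the plasma and lysosomal membranes. It stood at 14.0, 14.1 and 13.4 CPM in A2, B2 and C2, rose to 32.7, 29.8 and 35.1 CPM in D1, D2 and D3 and stood at 17.3, 14.4 and 12.8 CPM in A2plus, B2plus and C2plus. ZIP8 and ZIP14 are close relatives, and their genes moved in opposite directions, Slc39a8 2.33-fold up and Slc39a14 6.52-fold down. Slc39a10 rose 2.27-fold from 31.9 ± 2.5 to 71.1 ± 3.95 CPM, and Slc39a6 rose 1.48-fold from 67.6 ± 1.26 to 99.9 ± 1.94 CPM. Their products, ZIP10 and ZIP6, are known to pair in the plasma membrane. Slc39a11 rose 1.28-fold and the low gene Slc39a12 1.69-fold. Slc39a3 and Slc39a9 were not called, with adjusted p of 0.0551 and 0.326 in edgeR's test.

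Among the exporters, Slc30a5 rose 1.59-fold, from 83.8 ± 4.63 to 133 ± 2.67 CPM, while Slc30a6 fell 2.25-fold, from 31 ± 2.47 to 13.9 ± 0.840 CPM (SD, n = 3 each). ZnT5 and ZnT6, their products, work as a heterodimer that loads zinc into the early secretory pathway. Slc30a7, for ZnT7 of the Golgi, fell 1.56-fold from 79.6 ± 1.36 to 51.4 ± 1.62 CPM. Slc30a9 fell 1.76-fold from 98.9 ± 6.41 to 56.2 ± 1.39 CPM, and Slc30a4 fell 1.51-fold from 20.7 ± 1.09 to 13.7 ± 1.78 CPM. Slc30a2 and Slc30a8, the latter the insulin granule transporter of the pancreas, had 0 counts in all 9 libraries, with the same limits as for Mt4. Slc30a3, Slc30a10, Slc39a2 and Slc39a5 had at most 23 counts in any library and were not tested.

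From the Pam3CSK4-labelled to the 3SL-labelled libraries, 7 of the 16 further zinc genes were higher and 7 lower, beside 34.7% and 36.8% of all genes. Slc39a4 was 13.6-fold higher and Slc39a13 3.26-fold higher, and Slc39a8 was 2.22-fold and Slc39a10 2.15-fold lower. Slc30a6 was 2.05-fold higher and Slc30a5 1.43-fold lower. Slc30a4 was 1.42-fold higher and was no longer called without TMM scaling (log2 change 0.23, edgeR adjusted p = 0.0601).

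Between the 3SL-labelled and untreated-labelled libraries, 0 of these 16 genes passed edgeR's test and 0 passed with DESeq2, where 2 had no adjusted p. At an unadjusted p of 0.05 there were 3, Slc39a4, Slc39a13 and Slc30a5. Slc39a4 differed by 0.35 (adjusted p = 0.155), Slc39a13 by 0.14 (adjusted p = 0.0789) and Slc30a5 by 0.16 (adjusted p = 0.0517) on the log2 scale in edgeR's fit. Without TMM scaling Slc39a13 (0.18) and Slc30a5 (0.19) passed.

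**Figure D4:**
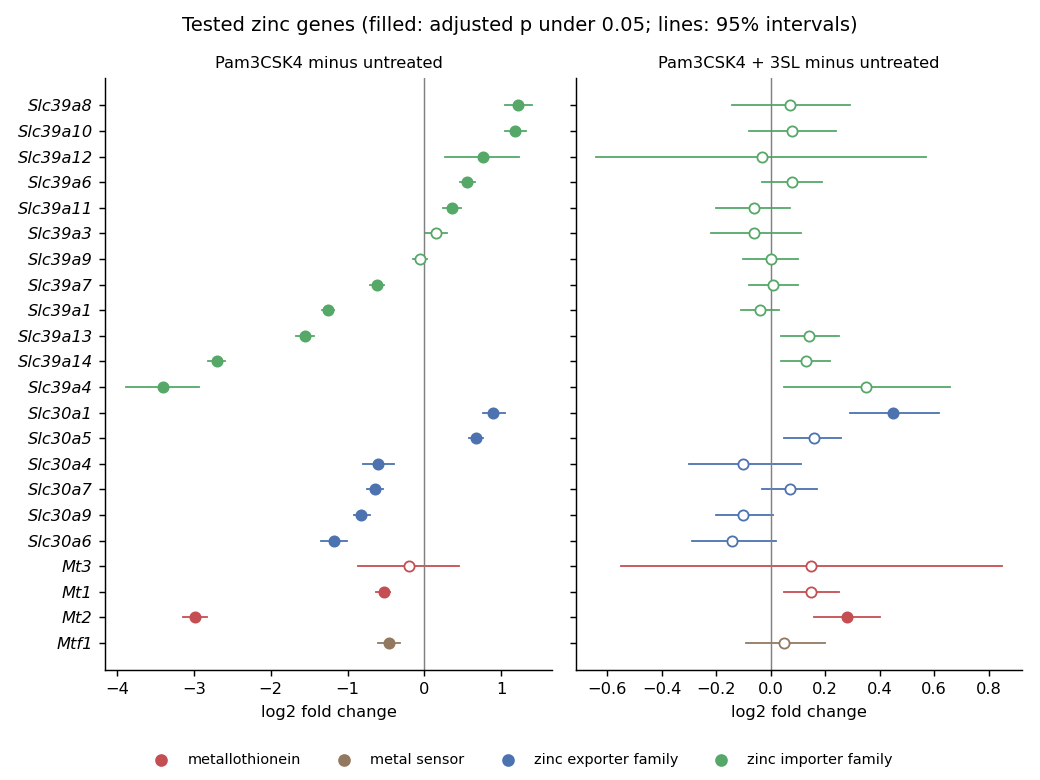
Log2 fold change (horizontal axis, a separate range in each panel) of the 22 tested zinc genes, Pam3CSK4-labelled against untreated-labelled on the left and 3SL-labelled against untreated-labelled on the right; filled points passed edgeR's test at an adjusted p of 0.05, open ones did not, and lines are 95% intervals. On the left the importers run from Slc39a8 at 1.22 to Slc39a4 at -3.41, and on the right Slc30a1 and Mt2 alone are filled.

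Over the 9 libraries the 6 genes differed in the size of their changes, and Slc30a1 in their direction. Likeness was measured as the root mean square distance between log2 CPM values centred on each gene's mean, in log2 units, with smaller values for closer patterns. The closest pairs among the 6 were Mt1 with Mtf1 at 0.113 and Mt2 with Slc39a14 at 0.215. Mt1 and Mt2 lay 1.19 apart, and Mt2 with Slc30a1 were the farthest pair at 1.79. Of all tested genes outside the set, the 3 nearest to Mt2 were Bnip3 at 0.123, Sla at 0.126 and Map3k8 at 0.129, and those nearest to Slc39a14 were Sema4a at 0.0588, Arrdc4 at 0.0695 and Sdc4 at 0.0736. Nearest to Mt1 were Ankrd13d at 0.0511, Coro1a at 0.0523 and Fermt3 at 0.0572, and near Mtf1 were Smg1 at 0.0474 and Cln3 at 0.0524. For Slc39a1 the nearest were Clec12a at 0.0331, Pgk1 at 0.0338 and Abi1 at 0.0367, and for Slc30a1 Atp8a1 at 0.0917, Cdk19 at 0.0983 and Tmc6 at 0.0995. The distance grows with the size of a gene's change and its noise, so distances of different genes are not on a par.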

How the data were processed

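RNA was extracted with TRIzol and libraries were made with the NEBNext Ultra RNA kit, per the labels' protocols. The authors deposited raw counts for each gene. The submitters' processing notes name HISAT2 2.1.0, featureCounts, Subread and the human build hg38, while all 22001 identifiers are of the mouse, so the build is not settled. The annotation and the strand setting are not given in the sources used here. A further 15 columns, of other samples, were not used here.

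The test was edgeR 4.0.16 (R 4.3.3): filterByExpr kept 11469 genes (52.1%), TMM factors scaled the libraries, and all 9 libraries entered 1 fit with group means. P-values came from the quasi-likelihood test with Benjamini-Hochberg adjustment over all tested genes, threshold 0.05. DESeq2 1.42.0 was an alternative. The Mt1 to Mt2 ratio was tested with SciPy 1.17.1. Coordinates, lengths and overlaps came from GENCODE M21 on GRCm38, 1-based, and promoters from RefSeq.

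Named were the 6 genes, tested genes of a zinc and copper list, Il6, and the 3 genes most like each, of which 1 is not reported here. The genes and lists were chosen with earlier results of these data known. The SE of a log2 change was its absolute value divided by the square root of the F statistic of edgeR's quasi-likelihood test. The 95% intervals of log2 changes were built from this SE and include scatter between libraries. The limits given for genes with 0 counts cover counting error only.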

Additional observations from a re-analysis of the deposited data

How the results depend on the processing

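Of 490 recomputed values 463 were rated as unchanged. Of the 276 for single members of the set 262 kept their direction and call. The rest are counts of called genes, rated by closeness to the main count, and Mt1 to Mt2 ratios. For the ratios only a turned sign could be rated as a change, since p in the exact permutation test cannot go below 0.1. With library sizes not TMM-scaled, the median gene moved to 0.34, -0.29 and 0.04 (log2) in the 3 comparisons. The genes called higher and lower then numbered 6882 and 2380, against 4474 and 4123, from untreated- to Pam3CSK4-labelled, and 2434 and 6393, against 3978 and 4226, from Pam3CSK4- to 3SL-labelled. Mtf1 fell to -0.14 in the first (edgeR adjusted p = 0.0570). For the 6 genes, the other changed calls concern 3SL-labelled against untreated-labelled libraries. Among other zinc and copper genes without TMM scaling, the first comparison gained Slc39a3, Slc39a9, Ccs and Commd1 and lost Atox1 and Cox17, and the second gained Slc39a9 and Ccs and lost Slc30a4, Atox1 and Cox17. In the second, zinc genes called lower went from 8 to 6 when thinned and without D2 or C2plus. Between the 3SL-labelled and untreated-labelled libraries 787 genes were higher without TMM scaling, against 439 with it, with 6 zinc genes in place of 2. Without TMM scaling, with no filter on low counts and with only the 2 groups fitted, Mt1 was 0.19, 0.14 and 0.15 (edgeR adjusted p = 0.0106, 0.0361 and 0.0485) and Slc39a14 0.17, 0.12 and 0.13 (0.0138, 0.0497 and 0.0346), and the last 2 settings called 4 zinc genes higher. With counts thinned to equal depth Mt1 was 0.18 (0.0426). In this comparison, leaving out 1 library at a time gave 270 to 435 higher and 356 to 603 lower genes. Both counts were lowest without B2, the deepest library, and 378 genes were lower without A2plus, against 586. Leaving out 1 library gave 2 to 4 zinc genes higher, 4 without C2plus. It also gave 0.09 to 0.19 for Mt1, 0.10 to 0.16 for Slc39a14 and -0.00 to 0.09 for Mtf1, whose sign turned without C2plus. The cause was not tested. Depth limits Slc39a4, with 8 to 12 counts in the Pam3CSK4-labelled libraries, and Mt3, with 8 to 61 counts per library across all groups.

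The letters A, B and C recur in the untreated- and 3SL-labelled libraries, but same-letter libraries correlated at only -0.02, 0.04 and 0.01 in their deviations from the group means, so they share a letter and no more was shown. A fit with the letter as a replicate block called 402 genes higher and 549 lower and 4 zinc genes higher, with Mt1 at 0.16 (edgeR adjusted p = 0.0313), Slc39a14 at 0.13 (0.0363), Mt2 at 0.28 and Slc30a1 at 0.44.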

Other observations

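Copper genes were described beside the zinc genes, since metallothioneins also bind copper. Of 8 copper genes listed, 7 were tested, and 5 were lower in the Pam3CSK4-labelled than in the untreated-labelled libraries, beside 35.9% of all genes, with 0 higher by edgeR's test and 0 higher at an unadjusted p of 0.05. Slc31a2, for an intracellular relative of the copper importer CTR1, stood at 371, 374 and 372 CPM in A2, B2 and C2, at 58.3, 51.5 and 54.3 CPM in D1, D2 and D3 and at 358, 376 and 354 CPM in A2plus, B2plus and C2plus, a 6.83-fold fall. Slc31a1, which encodes CTR1 itself, stood at 638, 648 and 660 CPM in A2, B2 and C2, at 166, 154 and 155 CPM in D1, D2 and D3 and at 651, 638 and 657 CPM in A2plus, B2plus and C2plus, a 4.09-fold fall. In both genes the D libraries lay far below the rest and the other groups overlapped. Atp7a, the copper-pumping ATPase of the secretory pathway, fell 2.21-fold from 112 ± 4.68 to 50.1 ± 0.575 CPM (SD, n = 3). The copper chaperone genes Atox1 and Cox17 fell 1.23-fold and 1.27-fold, and neither was called without TMM scaling, where Ccs and Commd1, not called with TMM scaling at 0.16 and 0.05 (log2), were higher at 0.48 and 0.36. Between the 3SL-labelled and untreated-labelled libraries 0 of the 7 passed in edgeR's or in DESeq2's test, and 1, Commd1, had an unadjusted p under 0.05.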
